A study of Mus musculus with 4 samples.

Results

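Mitotic genes, 33 of the 32285 genes in the matrix, were followed as 1 module through the single-cell transcriptomes of mouse embryonic stem cells. The members were a list of genes of the G2 and M phases, found by symbol in the feature table, and all 33 were present once. Droplet sequencing of transcript 3′ ends had been applied to E14tg2a.4, a male embryonic stem cell line, and to a line derived from it with a gene trap in 1 copy of Srrm2, which encodes a splicing-associated protein of nuclear speckles. The labels list 2 replicates of wild-type cells and 2 of Srrm2 hKO cells (SIGTR line CG0630, the cassette lying in exon 1). Both lines were grown on gelatin in medium with LIF. For the cells taken into droplets the methods give a single culture time under regular conditions, the same for both lines, which differs from the times in serum-free ESGRO medium that the labels list for the series. The hKO line is 1 trapped line, so any of its properties may belong to that line rather than to the trap.

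The cell barcodes end in a library number from 1 to 4, and nothing in the labels or files says which number is wild-type or Srrm2 hKO. Each library was therefore treated as a single value, no contrast between the lines was made and no p-value was computed. A filter on UMIs, genes and mitochondrial share kept 7464 to 8514 cells and 166839268 to 200180473 unique molecular identifiers (UMIs) per library. Between 11 and 26 barcode sequences were shared by any pair of libraries. Srrm2 itself stood at 387, 533, 238 and 356 UMIs per 1000000 UMIs of kept cells (CPM) in libraries 1 to 4, and these values were not used to assign a library. Every interval below is an exact 95% interval that covers counting error only, not variation between cultures.

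Entry into mitosis is driven by Cdk1 bound to cyclins A and B, and exit by the anaphase-promoting complex, which marks cyclin B and securin for destruction. Between these steps the Aurora and Polo-like kinases, kinesin motors and microtubule-binding proteins build the spindle, and checkpoint kinases hold anaphase back until every kinetochore is attached. Transcripts of many of these proteins accumulate in G2 under MuvB complexes with B-Myb and FoxM1, which act at a promoter element named the cell cycle genes homology region (CHR), and under NF-Y, which binds CCAAT boxes. Embryonic stem cells are known for short gap phases and rapid division.

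The start regions of the members were read first, because these elements are the known common feature of the family. RefSeq promoter windows (GRCm38.p6, 250 bases before to 50 after each annotated start) were found for 28 of the 33 members, giving 30 windows. Kif20a, Tpx2, Aurkb, Ccna2 and Dlgap5 had none. The letters TTTGAA of the CHR, sought on both strands, occurred in 20 of the 28 genes (71.4%), against 20.2% of all 27025 genes with a window. CCAAT occurred in 22 of the 28 (78.6%, against 41.1% of all genes), and 15 of the 28 held it at least 2 times (53.6%, against 13.3%). Both elements were present in 18 of the 28 (64.3%), against 7.97% of all genes. The TATA box letters TATAAA occurred in 0 of the 28, against 15.7% of all genes. In the members' windows 1 pair of matches overlapped, a pair of CCAAT matches on opposite strands in Ube2c. A match describes the letters in the window and is not evidence that a factor binds there.

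The 150 bases before the start are shown for 5 members that hold both elements in their windows, chosen because Ube2c, Top2a, Hmmr and Cdk1 were among the members that tracked the module most closely across cells and Cdc20 differed widely between libraries in its range over cells. Capitals mark matches on either strand of the CHR letters, of a CHR variant (TTCGAA) and of CCAAT. In Hmmr the CHR match lies just after the start and so outside the printed stretch.
Ube2c, chr2:164769779-164769928, plus strand: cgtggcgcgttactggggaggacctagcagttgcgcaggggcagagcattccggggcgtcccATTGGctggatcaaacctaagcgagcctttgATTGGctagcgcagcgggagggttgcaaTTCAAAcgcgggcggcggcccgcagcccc
Cdc20, chr4:118437344-118437493, minus strand: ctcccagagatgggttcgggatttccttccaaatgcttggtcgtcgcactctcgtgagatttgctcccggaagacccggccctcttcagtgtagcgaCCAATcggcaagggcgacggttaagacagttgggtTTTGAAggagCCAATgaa
Top2a, chr11:99024190-99024339, minus strand: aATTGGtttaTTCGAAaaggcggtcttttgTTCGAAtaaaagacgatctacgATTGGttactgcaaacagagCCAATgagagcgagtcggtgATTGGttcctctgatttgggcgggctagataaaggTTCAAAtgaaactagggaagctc
Cdk1, chr10:69352913-69353062, minus strand: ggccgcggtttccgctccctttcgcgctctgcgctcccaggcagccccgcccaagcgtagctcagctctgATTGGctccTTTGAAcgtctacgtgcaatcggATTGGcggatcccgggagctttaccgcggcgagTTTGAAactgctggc
Hmmr, chr11:40733438-40733587, minus strand: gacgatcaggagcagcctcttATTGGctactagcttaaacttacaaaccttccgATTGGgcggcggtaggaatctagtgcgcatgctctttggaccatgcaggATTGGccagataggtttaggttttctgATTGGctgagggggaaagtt
Ube2c and Top2a held 6 CCAAT matches each in the whole window, Hmmr 5, Cdk1 3 and Cdc20 2.

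Pttg1, Birc5, Nusap1 and Tacc3 held none of these letters in the window. The same stretch is shown for the first 3 of them, since Pttg1 and Birc5 were among the members that followed the module least while Nusap1 followed it closely.
Pttg1, chr11:43425982-43426131, minus strand: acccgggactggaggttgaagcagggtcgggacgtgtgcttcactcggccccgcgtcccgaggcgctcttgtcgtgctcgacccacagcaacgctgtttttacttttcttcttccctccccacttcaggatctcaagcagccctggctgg
Birc5, chr11:117849087-117849236, plus strand: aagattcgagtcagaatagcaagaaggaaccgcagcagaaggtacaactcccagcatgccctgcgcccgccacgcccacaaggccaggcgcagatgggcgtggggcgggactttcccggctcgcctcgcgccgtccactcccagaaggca
Nusap1, chr2:119618148-119618297, plus strand: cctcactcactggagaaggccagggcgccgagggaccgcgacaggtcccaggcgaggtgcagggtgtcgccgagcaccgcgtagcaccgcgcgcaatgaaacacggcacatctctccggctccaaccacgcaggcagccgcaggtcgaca
The Pttg1 window (chr11:43425932-43426231) lies wholly inside the annotated gene (chr11:43420250-43426251, minus strand). The stretch printed for Pttg1 is therefore within the gene, and the sequence before the gene's 5′ end was not read. Absence of the letters in these windows says nothing about sequence outside them.

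The summed level of the 33 members differed little between libraries. It was 5642 CPM in library 1, 5987 in library 2, 5379 in library 3 and 5535 in library 4, so mitotic transcripts made up 0.538% to 0.599% of all UMIs. The highest library exceeded the lowest by 1.11-fold (interval 1.11 to 1.12). A further 60 mitotic genes that are not members ran alongside, at 4651, 4827, 4401 and 4525 CPM, and 25 genes of DNA replication (S genes) at 3483, 4047, 3334 and 3882 CPM, a 1.21-fold range. The order of the libraries rested on the scaling. Median-of-ratios size factors moved every gene by 0.13, -0.04, 0.00 and -0.09 on the log2 scale in libraries 1 to 4, and put library 1 highest (6153 CPM on that scale) and library 4 lowest (5207). Without the cells of cluster 5, a state described further on, the range was 1.08-fold, with library 2 highest and library 4 lowest.

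Single members were also steady. Of the 33, 4 differed by at least 1.5-fold between their highest and lowest library, against 41.0% of the 11099 genes with at least 200 UMIs in every library. The median fold was 1.21 over the members and 1.42 over all those genes. The other cell-cycle lists were about as steady: 9 of the 60 other mitotic genes and 3 of the 25 S genes were past 1.5-fold. Their median folds were 1.245 and 1.238. The 4 members were Ckap2, Ect2, Ccnb2 and Nusap1, and the smallest fold was that of Tacc3 (1.08). Without library 1, or without library 4, the count was 1 (Ckap2). Per UMI, 19 members were highest in library 2 and 16 were lowest in library 3. The summed other mitotic genes and the summed S genes had the same highest and lowest library. The order of libraries was not counted over all genes, so these counts are not a trait of the members. With size factors 19 were highest in library 1, 18 were lowest in library 3, and only 12 kept both their highest and lowest library.

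**Figure D1:**
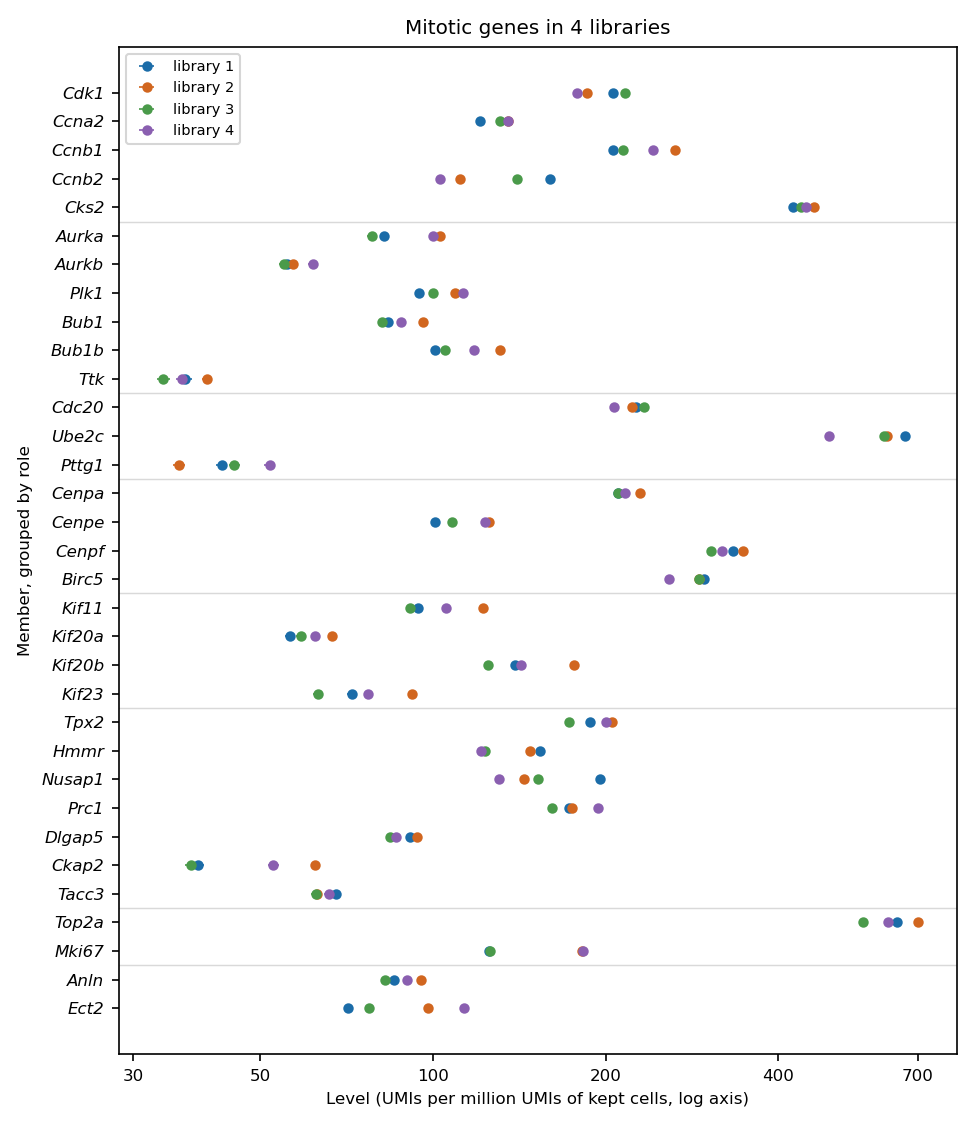
Level of each mitotic gene in libraries 1 to 4, in UMIs per 1000000 UMIs of kept cells on a log axis, with exact 95% Poisson intervals (mostly narrower than the points) and lines between the role groups. Most genes have their 4 points close together, with a median range of 1.21-fold, and Ckap2 shows the widest spread, 1.65-fold.

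Among the cyclins and their kinase, Cdk1, the catalytic subunit, stood at 206, 186, 216 and 178 CPM in libraries 1 to 4. Ccnb1, the main cyclin B, took values of 206, 264, 215 and 242 CPM. Ccnb2, another cyclin B (GRCm38 chr9:70407692-70421547, minus strand, coordinates of the whole gene as for the others below), was at 160.0, 111, 140.1 and 103 CPM. Ccnb1 was thus higher in libraries 2 and 4 and Ccnb2 higher in libraries 1 and 3, and Ccnb2 had a 1.56-fold range (1.53 to 1.59). Ccna2, encoding cyclin A, lay between 121 and 135 CPM. Cks2, a small subunit that binds Cdk1, ranged from 424 to 462 CPM. With size factors the range of Ccnb2 was 1.81-fold between the same libraries, while that of Ccnb1 was 1.198-fold, highest in library 2 and lowest in library 3.

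The 6 mitotic and checkpoint kinases were all under 1.5-fold. Aurka, which matures the spindle poles, was at 82.1, 103, 78.2 and 100.2 CPM, and Plk1, the Polo-like kinase, at 94.6, 109, 100.2 and 113 CPM. Libraries 2 and 4 were the higher for both. The checkpoint kinase gene Bub1b ranged from 101 to 131 CPM, Bub1 from 81.5 to 95.9 CPM and Ttk, the kinase that starts the checkpoint, from 33.9 to 40.4 CPM. Aurkb, the kinase of the chromosomal passenger complex, ranged from 55.1 to 61.8 CPM.

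Of the anaphase-promoting complex group, Ube2c, its ubiquitin-conjugating enzyme, was at 666, 618, 612 and 489.8 CPM. Its 1.36-fold range became 1.58-fold with size factors. Cdc20, the activator of the complex, stayed between 207 and 233 CPM. Pttg1, which encodes securin, the inhibitor of separase, took 42.8, 36.1, 45.1 and 51.9 CPM. It was the member lowest in library 2, where 19 others were at their highest, with a 1.44-fold range (1.39 to 1.48).

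Per UMI, the 4 centromere and passenger genes stayed within 1.24-fold, while with size factors Birc5 had a 1.34-fold range. Cenpf, a large kinetochore protein, lay between 305 and 347 CPM, Cenpa, the centromeric histone, between 210.5 and 229.6 CPM, and Cenpe, a kinetochore motor, between 101 and 125 CPM. Birc5, which encodes survivin of the passenger complex, was lowest in library 4 at 258 CPM and reached 297 CPM in library 1. The 4 kinesins were each highest in library 2, with size factors as well. Kif11, which slides spindle poles apart, went from 91.1 to 122 CPM and Kif23, a motor of the central spindle, from 63.0 to 92.0 CPM. Kif20a, needed for cytokinesis, went from 56.4 to 66.7 CPM and Kif20b from 125 to 176 CPM.

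Per UMI, the spindle proteins held both the member with the widest range and the one with the narrowest. Ckap2, a microtubule-stabilising protein (chr8:22168160-22185819), was at 39.0, 62.4, 37.9 and 52.7 CPM, highest in library 2 and lowest in library 3 by 1.65-fold (1.60 to 1.70). Nusap1, which bundles microtubules around chromosomes (chr2:119618298-119651244), was at 196, 144, 152 and 130.4 CPM, with library 1 above the rest and a 1.502-fold range (1.48 to 1.53). Nusap1 was under 1.5-fold, and Mki67 was above it, when cells of over 2 times the median UMI count were left out. Tacc3, a stabiliser of spindle fibres, stayed within 62.6 to 67.7 CPM. Tpx2, an activator of Aurora A, ranged from 173 to 206 CPM, Hmmr, a hyaluronan-binding spindle protein, from 121 to 154 CPM, Prc1, the crosslinker of the central spindle, from 161 to 194 CPM, and Dlgap5 from 84.3 to 94.0 CPM. With size factors the range of Ckap2 was 1.61-fold and that of Nusap1 1.74-fold, both between the same libraries as before. On that scale Tacc3 had a 1.21-fold range. The widest member range was then that of Ccnb2 (1.81-fold) and the narrowest that of Ccna2 (1.04-fold), neither of them in the spindle group.

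Top2a, the topoisomerase that disentangles sister chromatids, was at 644, 699.6, 561 and 622 CPM. Mki67, the coat protein of mitotic chromosomes behind the Ki-67 marker, was at 125, 182, 126 and 183 CPM, libraries 2 and 4 being alike and above libraries 1 and 3. At the cleavage furrow, Anln, an actin-binding scaffold, ranged from 82.6 to 95.3 CPM. Ect2, the activator of RhoA at the furrow (chr3:27097222-27153878), was at 71.2, 98.0, 77.5 and 113 CPM, lowest in library 1 and highest in library 4 by 1.59-fold (1.56 to 1.63). With size factors its range was 1.38-fold and its lowest library was library 3.

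None of the 33 members departed from the module by 1.5-fold in any 1 library, measured from its own mean. Each member's log2 level against its own mean of the 4 libraries was compared with the median of the same value over the members, and 0 members differed from that median by 1.5-fold in any library, against 14.9% of the 11099 genes. The nearest were Nusap1 and Ccnb2 in library 1 (0.39 and 0.38 above the median member on the log2 scale) and Pttg1 in library 2 (0.38 below it, written as -0.38). The widest member range was 1.65-fold, which left little room to reach this limit from a mean. Between libraries, shifts past 1.5-fold relative to the median member did occur. Ccnb2 went from 0.38 in library 1 to -0.33 in library 4, and Nusap1 from 0.39 to -0.27. Ect2 went from -0.27 in library 1 to 0.33 in library 4, and Pttg1 from -0.38 in library 2 to 0.22 in library 4. Anln was the most typical member, at 0.01 or less from the median in each library.

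Members rose and fell together from cell to cell. Each kept cell was thinned to 5000 UMIs, and each gene's log(1 + UMIs) was correlated with log(1 + UMIs of the other members) within each library. These are descriptions over cells that share a library, and no p is attached. The median r of the members was 0.26, 0.17, 0.25 and 0.19 in libraries 1 to 4, while that of all 6565 genes measured was at most 0.01. The size of r depends on depth. Thinned to 10000 UMIs, the members gave a median r of 0.35, 0.26, 0.37 and 0.27. Without thinning, in counts per 10000 of each cell, it was 0.46, 0.37, 0.49 and 0.37. When genes were ranked by their lowest library value, 26 of the 33 members were among the first 100, a set that is 1.52% of the genes measured. Of the 60 other mitotic genes 58 could be ranked and 27 were among the first 100, and of the 25 S genes 24 could be ranked and 0 were.

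Cenpf ranked first, with r of 0.52, 0.38, 0.46 and 0.37. Ube2c came second at 0.61, 0.38, 0.57 and 0.37, and Top2a was at rank 3 with 0.40, 0.34, 0.43 and 0.35. Every one of these was highest in library 1 or 3. Prc1, Nusap1, Tpx2, Hmmr, Cenpe, Plk1 and Cdk1 also stood within the first 12 ranks, so the leading members came from 6 of the 8 role groups. The members outside the first 100 were Bub1 (rank 104), Birc5 (124), Ckap2 (137), Ttk (153), Ccna2 (180), Ccnb2 (277) and Pttg1 (427). Pttg1 reached r of 0.13 in libraries 1 and 3 and 0.03 in libraries 2 and 4. In sparse counts such low values are weak.

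Beyond the members, Arl6ip1, a membrane protein of the endoplasmic reticulum, had the highest ranking of any non-member (rank 6, r of 0.48, 0.29, 0.38 and 0.27). Incenp, the scaffold of the passenger complex, and Smc4, a condensin subunit, followed at ranks 10 and 14. H2afx, Tubb4b, Aspm, Cdca2, Ccnf, Bub3, Kpna2, Mtf2, Sgo2a, Jpt1 and Ckap5 were also among the 15 leading non-members, with ranks from 17 to 34. Of the other mitotic list, Lin54, Psrc1, Cdca5, Cenpn and Zwilch had the lowest values, their lowest library r lying between -0.01 and 0.01. Among the S genes Rrm1, Mcm3, Tyms and Ccne1 were among the 5 highest, at ranks from 2129 to 4479, and Ung lay lowest with r of -0.22, -0.09, -0.05 and -0.10. Slbp, Mcm5, Chaf1b and Mcm6 were the next lowest.

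Of the 528 pairs of members, 0 were negatively correlated in every library and 54 were negative in at least 1. Pairs of other genes were not counted, so whether these counts are particular to the members was not tested. The strongest pair was Cenpf with Top2a (r of 0.32, 0.24, 0.31 and 0.24), followed by Prc1 with Top2a and Ube2c with Cenpf. Cenpf was the best partner of 11 members, Ube2c of 8 and Top2a of 7. Pairs within a role group had medians close to those of the others, with r of 0.08, 0.04, 0.08 and 0.03 for the 63 pairs that share a role and 0.09, 0.03, 0.08 and 0.04 for the 465 that do not.

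Genes whose proteins work as a pair were not the closest by r in these sparse counts. Of the 528 pairs Cdk1 with Ccnb1 ranked 102, with r of 0.12, 0.07, 0.15 and 0.10. Aurka with its activator Tpx2 ranked 90, with 0.16, 0.08, 0.11 and 0.09. Aurkb and Birc5, both of the passenger complex, ranked 503, with 0.02, -0.01, 0.05 and 0.00. Bub1 with Bub1b ranked 365, with 0.06, 0.02, 0.07 and 0.02. These pairs were picked by textbook partnership, and others picked in the same way are not reported here. Cdc20 with Ube2c had the highest rank of those picked, 55. This pair reached 0.33 and 0.31 in libraries 1 and 3 but 0.12 and 0.10 in libraries 2 and 4.

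**Figure D2:**
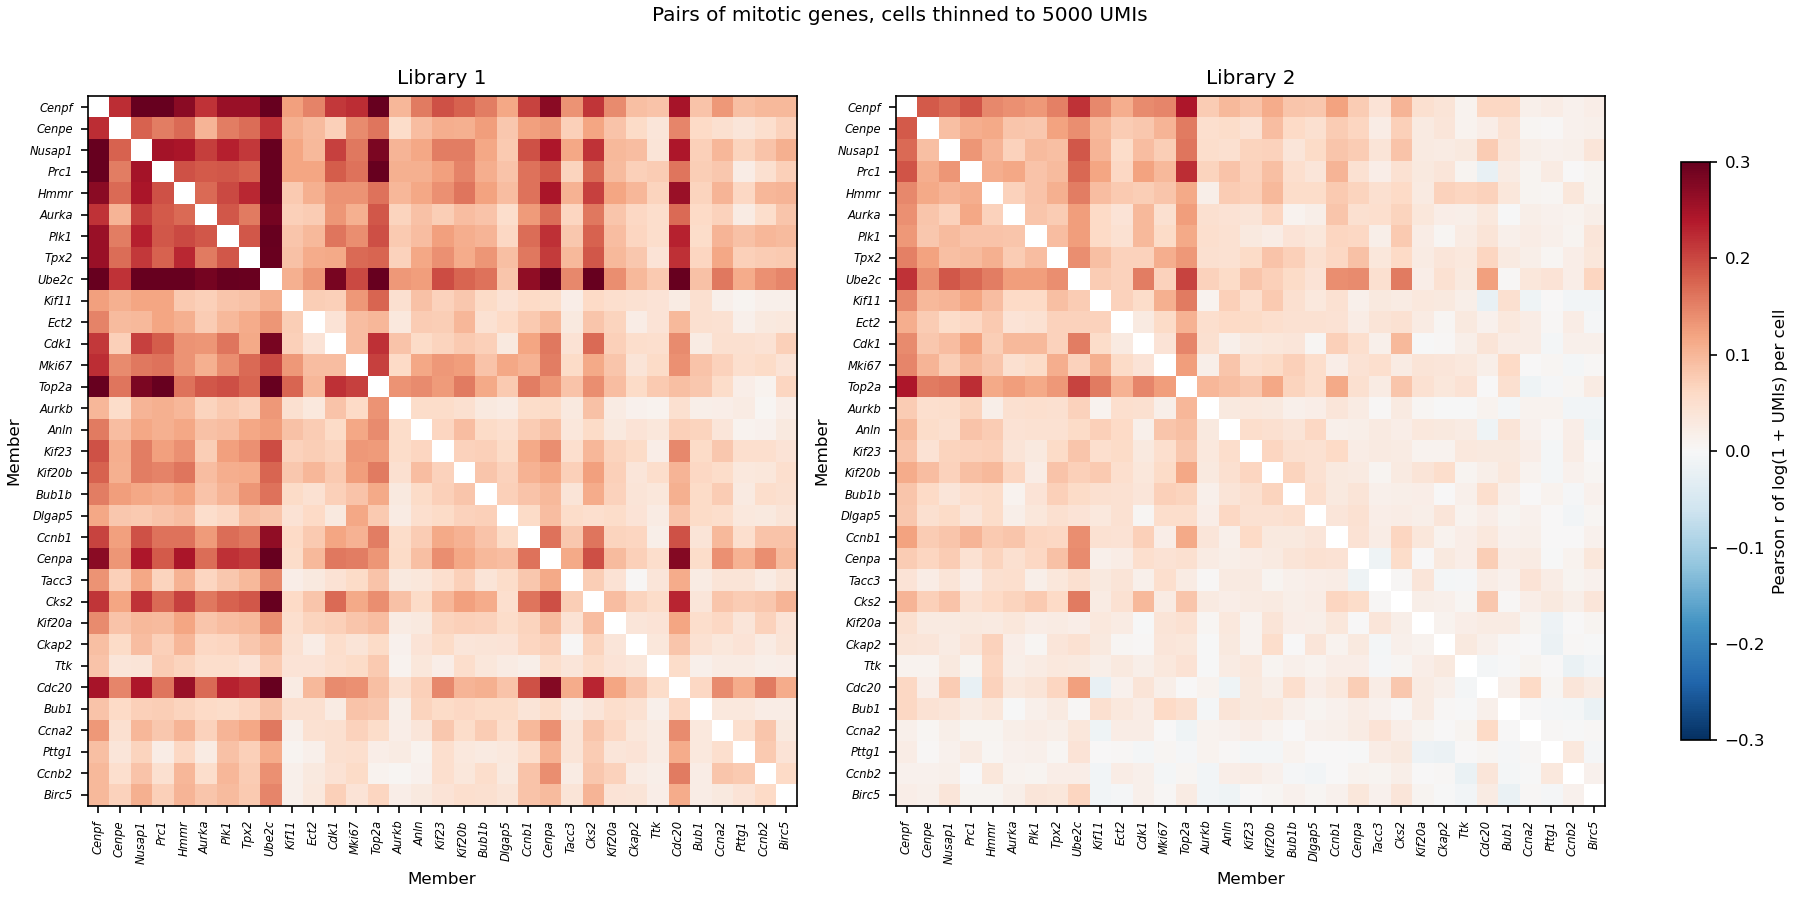
Pearson r over cells of log(1 + UMIs) for each pair of the 33 mitotic genes in library 1 (left) and library 2 (right), cells thinned to 5000 UMIs, members ordered by the smallest of their 4 folds between the highest and lowest decile of cells, colour from -0.3 (blue) to 0.3 (red) with values beyond at the end colour. The median pair was 0.09 in library 1 and 0.04 in library 2, and the rows of Cenpf and Ube2c are among the reddest in both.

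The size of these shared swings was measured by ranking the cells of a library by the sum of the 32 other members and comparing the highest decile with the lowest. All 33 members were higher in the highest decile in all 4 libraries, although for Pttg1 in library 4 the interval included no change (1.21-fold). Over the 6565 genes tested for correlation, with genes outside the group read against the sum of all 33 members, 60.5%, 58.8%, 57.3% and 60.2% were higher in the highest decile in libraries 1 to 4. The median fold over members was 3.34, 2.03, 4.13 and 2.19 in libraries 1 to 4, beside 1.05, 1.04, 1.05 and 1.05 over the 6565 genes. With cells ranked by all 33 members, the lowest decile of library 3 (790 cells) included 244 cells of cluster 5 with few member UMIs, described further on. The folds were not computed without them. In library 1, 12 members exceeded 5-fold and in library 3, 13 did, while 0 did in libraries 2 and 4. Of the 6565 genes, 0.335% in library 1, 0.533% in library 3 and 0.0152% in each of libraries 2 and 4 were at least 5-fold higher.

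Plk1 had folds of 12.3, 3.21, 10.8 and 3.06. In library 1 it went from 15.8 CPM in the lowest decile to 194 CPM in the highest, and in library 2 from 48.1 to 154 CPM. Nusap1 had folds of 8.31, 3.61, 11.2 and 4.23, and Cenpf of 8.83, 3.77, 9.52 and 3.82. Libraries 1 and 3 were thus the wide ones for Plk1, Nusap1 and Cenpf alike.

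Cdc20, which acts at the end of mitosis, went from 76.1 to 399.8 CPM in library 1, a 5.25-fold swing, and from 77.5 to 395 CPM in library 3, a 5.10-fold one. In library 2 it went from 181 to 279 CPM (1.54-fold) and in library 4 from 165 to 233 CPM (1.41-fold). Its mean level, by contrast, had a 1.12-fold range over the libraries per UMI, and a 1.26-fold range with size factors. Birc5 had the narrowest swing of the members in 3 of the 4 libraries, with folds of 1.72, 1.15, 2.27 and 1.27, and Ccnb2 was next in library 1 with folds of 1.89, 1.17, 2.44 and 1.26.

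**Figure D3:**
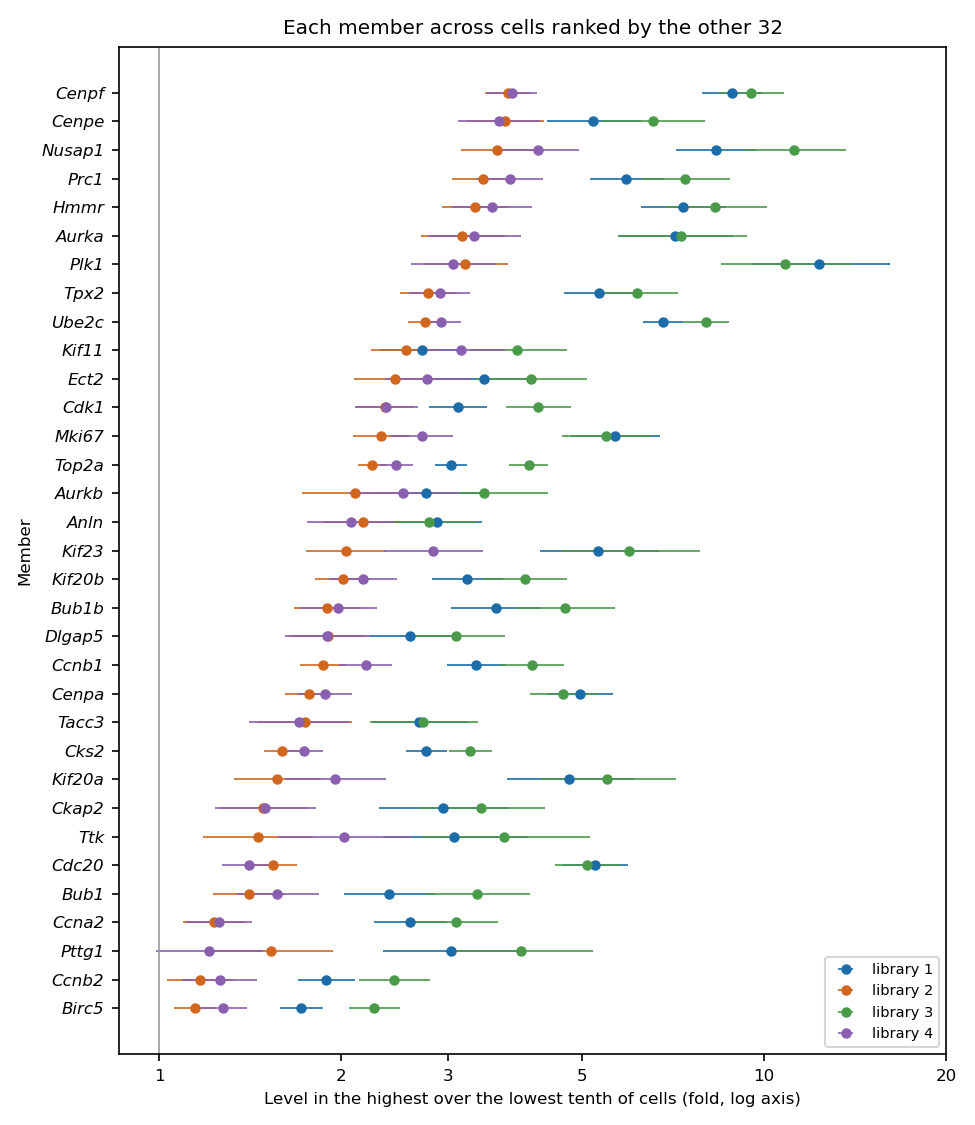
Fold between the highest and the lowest decile of cells for each mitotic gene, cells of a library ranked by the sum of the other 32 members, log axis, 1 colour per library, with exact 95% intervals for counting error. Genes are ordered by the smallest of their 4 folds, from Cenpf at the top to Birc5 at the bottom, and except for Kif11 the points of libraries 1 and 3 lie to the right of those of libraries 2 and 4.

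Other properties of the cells moved along the same ranking. With cells ranked by all 33 members, the median UMI count before thinning rose from 14338.5 in the lowest decile to 22074 in the highest in library 1, and from 18184.5 to 26189 in library 2. The S genes were highest in decile 2 or 3 and lowest, leaving aside decile 1 of library 3, in the highest one. In library 1 they went from 4028 CPM in decile 2 to 2963 CPM in decile 10. Cells with over 2 times their library's median UMI count, which can be doublets, made up 1.48% of decile 1 of library 1, 9.48% of decile 8 and 4.32% of decile 10. The part of cell size and doublets in the swings was not tested.

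The summed members per cell were more dispersed in some libraries than in others. Out of 5000 UMIs the median cell held 24, 28, 24 and 26 member UMIs in libraries 1 to 4. The values at the 5th and the 95th percentile of cells were 9 and 52 in library 1, 15 and 47 in library 2, 8 and 48 in library 3, and 13 and 44 in library 4. The variance-to-mean ratio, which is 1 for pure counting noise, was 6.84, 3.41, 6.08 and 3.42, and 7.02, 3.44, 6.26 and 3.47 without the cells of over 2 times the median UMI count. At 10000 UMIs per cell it was 12.5, 5.78, 11.2 and 5.73. The S genes gave 1.74, 1.81, 2.20 and 1.97, and the other mitotic genes 2.32, 1.67, 2.52 and 1.72. Of single members, Ube2c had the largest ratio in libraries 1 to 3 (2.58, 1.69 and 2.40) and Top2a in library 4 (1.65).

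**Figure D4:**
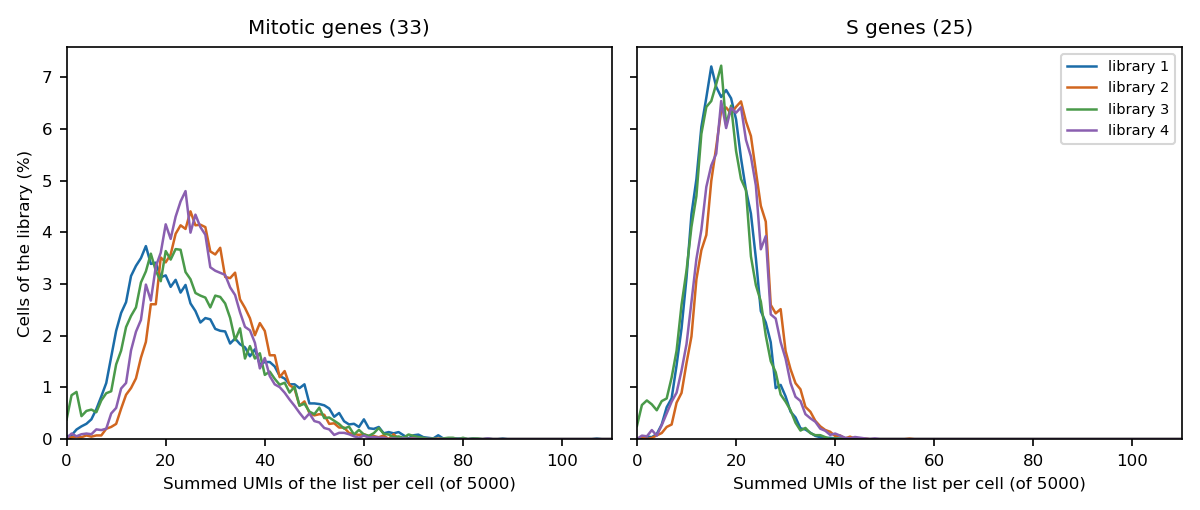
Share of the cells of each library (%, vertical) with a given number of summed UMIs out of 5000 (horizontal) for the 33 mitotic genes (left) and the 25 S genes (right), 1 line per library. The mitotic lines of libraries 1 and 3 are broad and start lower, with medians of 24, those of libraries 2 and 4 are narrower, with medians of 28 and 26, and library 3 has a small peak near 0 in both panels.

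Cell states were then compared inside each library, with clusters formed after the members, the other mitotic genes and the S genes had been removed from the variable genes. Of the 5 clusters with at least 2% of cells, cluster 1 (13436 cells, led by Slc11a1, Catip, Catsperz, Ppp1r14d and Myo1f) came almost wholly from libraries 1 and 3. Cluster 2 (7148 cells, led by Spic, Gm38414, Sgo2b, Prcd and Slc4a5) came mostly from library 2. Cluster 3 (5134 cells) was led by Spon1, Fgf5, Slc35d3, St6gal2 and Tubb4a, carried the formative pluripotency markers at 2280 CPM and the naive ones at 388 CPM, and came from libraries 2 and 4. Cluster 4 (3509 cells, led by Gm45752, Plac8, Gpx2, Lypd2 and Rbm47) was almost confined to library 4. Cluster 5 (2601 cells) was led by Gzme, Ctla2a, Acta2, Col1a2 and Acta1 and lay mostly in library 3. Naive markers summed to 1947 CPM in cluster 1, 1837 in cluster 2, 1550 in cluster 4 and 528 in cluster 5. States were taken only where a library had at least 100 cells of the cluster, and since none of the 5 clusters reached that number in all 4 libraries, they were compared only with other states of the same library.

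The summed members ranged over states by 1.03-fold in library 1, 1.05-fold in library 2, 1.15-fold in library 3 and 1.16-fold in library 4. In library 3 cluster 1 held 5621 CPM and cluster 5 held 4879 CPM, the latter including a set of cells with few member UMIs that is described further on. In library 4 cluster 2 held 6238 CPM, cluster 4 held 5709 CPM and cluster 3 held 5382 CPM. The cells of library 4 in cluster 2 numbered 217, with a median of 15048 UMIs against 21914.5 in cluster 3. In every library the state with the formative or contractile genes leading was the lowest, and the gap was within 1.16-fold throughout.

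Few members moved by 1.5-fold between states. The reference was the largest state of each library, cluster 1 in libraries 1 and 3 and cluster 2 in library 2. In library 4 it was cluster 3, the state with formative markers, so higher and lower have the opposite sense there. Against these references all members past 1.5-fold were higher, a direction that rests on the choice of reference. Cluster 5 against cluster 1 had 1 of 33 members past that fold in library 1, against 33.4% of genes in either direction (19.3% higher and 14.1% lower), and 1 of 33 in library 3, against 34.6% (23.6% higher and 11.0% lower). Cluster 3 against cluster 2 in library 2 had 0 of 33, against 27.0% of genes (16.3% higher and 10.7% lower), and cluster 4 against cluster 3 in library 4 had 0 of 33, against 26.8% (9.16% higher and 17.6% lower). Cluster 2 against cluster 3 in library 4 had 5 of 33 higher (15.2%) and 0 lower, against 12.3% of genes higher and 18.7% lower, 31.0% in all. The share of members higher there was thus near that of all genes. Each comparison took genes with at least 200 UMIs over both states together and at least 1 in each.

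The single member past the fold in cluster 5 was Pttg1 in both libraries. In library 1 its level was 86.6 CPM in the cells of cluster 5 and 39.25 CPM in its cluster 1 cells, a log2 ratio of 1.14 (1.05 to 1.23), and in library 3 at 63.2 and 36.2 CPM, a log2 ratio of 0.80 (0.74 to 0.87). Relative to the summed members of the same cells the log2 ratio was 1.19 and 1.01. The other members of cluster 5 in library 3 leaned the other way, 29 of the 33 being under 0 on the log2 scale, with a median of -0.17 against 0.13 over all genes. The lowest was Kif20b at -0.53, followed by Dlgap5 at -0.47. These library 3 values include 244 cells with few member UMIs, described further on. Without them the summed members of cluster 5 were at 5273 CPM, against 4879 CPM with them and 5621 CPM in cluster 1. In cluster 5 of library 1, 21 of the 33 were under 0, with a median of -0.04 against 0.10 over all genes.

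In library 4 the 5 members of cluster 2 past 1.5-fold were Ckap2 (log2 ratio to cluster 3 of 1.06, interval 0.89 to 1.21), Hmmr (0.81), Kif20b (0.76), Dlgap5 (0.65) and Kif11 (0.60). The other 6 spindle and kinesin members ranged from Tpx2 (-0.03) to Nusap1 (0.45). Members of other groups lay above all 6, with Anln at 0.55, Ttk at 0.51 and Top2a at 0.48. Pttg1 had the most negative value there, -0.49. Of the 33 members 24 were above 0, with a median of 0.16 against -0.08 over all genes. In library 2, where cluster 3 was set against cluster 2, Kif20b (-0.45) and Hmmr (-0.37) were the lowest and Plk1 (0.31) was the highest, all under 1.5-fold.

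Among the states taken, cells with few mitotic transcripts were most frequent in cluster 5 of library 3. At most 5 member UMIs of 5000 were found in 244 of the 2060 cluster 5 cells of library 3 (11.8%, interval 10.5 to 13.3), against 0.796% of its cluster 1 cells (0.583 to 1.06). In library 1 the shares were 2.93% (1.57 to 4.95) of 444 cluster 5 cells and 1.10% (0.877 to 1.36) of cluster 1 cells. In every state taken from libraries 2 and 4 the share was at most 0.922%, which was 2 of the 217 cluster 2 cells of library 4. Cluster 5 had 21 cells in library 2 and 76 in library 4, too few to be taken, and its share there was not measured. The limit of 5 was chosen after the values were seen, and in cluster 5 of library 3 52 cells had 4 or 5 such UMIs and 40 had 6 or 7.

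**Figure D5:**
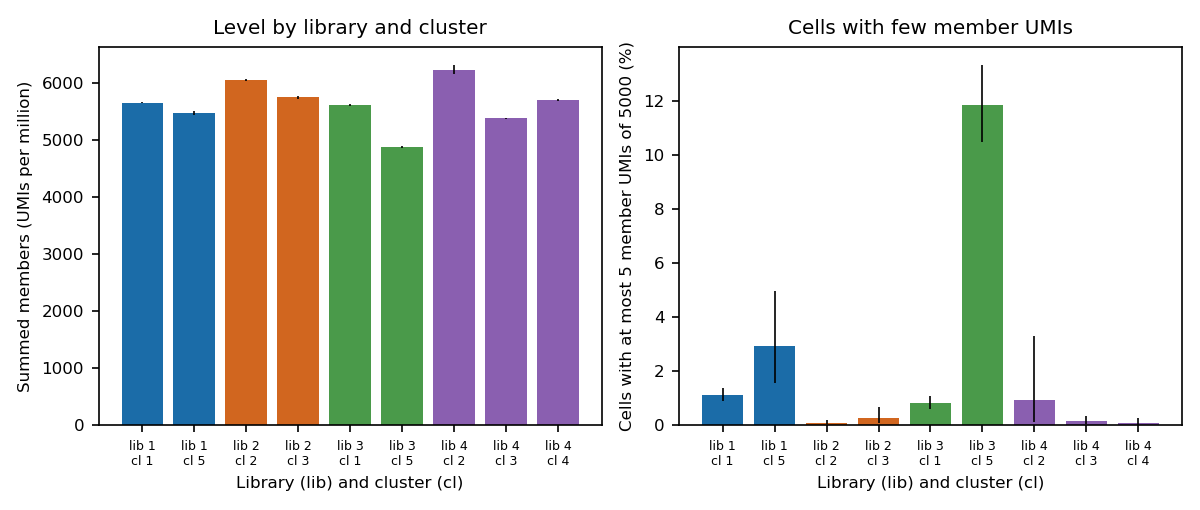
Left, summed level of the 33 mitotic genes in CPM for each library (lib) and cluster (cl) with at least 100 cells, bars from 0 with exact 95% Poisson intervals. Right, share of the cells of each with at most 5 member UMIs of 5000, with exact 95% binomial intervals, where cluster 5 of library 3 stands at 11.8% and every other bar is under 3%.

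These 244 cells differed from the 1816 other cells of the same state in more than the members. The 60 other mitotic genes, which did not define them, were at 947 CPM against 4318 CPM, and the S genes at 740 CPM against 3148 CPM. By their choice the 244 cells had members at 493 CPM, against 5273 CPM in the 1816 others. In cluster 1 of library 3 the 46 cells within the same limit were less low in the members, at 1263 CPM over all their UMIs, and had S genes at 3437 CPM, against 3521 CPM in the rest of that state, and other mitotic genes at 2446 CPM, against 4585 CPM. The median UMI count was 17806.5 in the 244 cells against 25197.5 in the others.

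Markers of other cell types moved with them. The keratin and contractile list (9 genes, among them Acta2, Tagln and Krt8, and also Ctla2a) summed to 15551 CPM in the 244 cells and 3102 CPM in the others, and the 5 fibroblast genes to 219 and 15.004 CPM. Of the fibroblast genes Col1a2 was at 106 against 7.66 CPM, Col1a1 at 80.8 against 5.64 CPM and Col3a1 at 31.1 against 1.51 CPM, while Lum and Dcn, which define mature fibroblasts, had 1 and 2 UMIs in all 244 cells. The primitive endoderm list stood at 16.2 against 2.04 CPM and the trophectoderm list at 5.91 against 11.96 CPM. Naive markers were lower, at 203 against 557 CPM, and formative ones too, at 515 against 1232 CPM. In library 1 the 13 cluster 5 cells within the same limit had the keratin and contractile list at 15429 CPM and the fibroblast genes at 398 CPM. Its 431 other cluster 5 cells had them at 1215 and 0.645 CPM, so this profile was not confined to library 3. The part of another cell type in the low mitotic counts was not tested. In cluster 1 alone the variance-to-mean ratio of the summed members was 6.92 in library 1 and 5.54 in library 3, so the wide spread of those libraries was present without cluster 5. Library 4's cluster 2 cells reached 5.29, against 3.17 and 3.19 in that library's clusters 3 and 4, and library 2's cluster 2 cells were at 3.45.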

How the data were processed

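Single-cell 3′ libraries were made with droplet chemistry, and the authors ran Cell Ranger 6.1.2 on mm10 and deposited a combined matrix of UMI counts per gene and barcode, in which reads had been subsampled so that libraries had similar depth. The counts are whole numbers with no other normalization. Cells were kept with UMIs and genes at or above their library's mean minus 1 SD and at most 10% mitochondrial UMIs, leaving 31989 of 41142 barcodes. Library sums were divided by the UMIs of kept cells (per 1000000, CPM). For values per cell, each cell was thinned at random to 5000 UMIs. Genes correlated over cells had a mean of at least 0.05 thinned UMIs in every library. Clusters came from log counts per 10000, 2000 variable genes without the 3 cell-cycle lists, 20 components, 20 neighbours and Leiden resolution 0.2, with no batch integration. No doublet caller was run, and cells of over 2 times the median UMI count were left out as an alternative. All 33 members were named, and of other genes the 15 most correlated, the 5 highest and lowest of each list and the 5 leading genes of each cluster. Some genes that this rule takes are not reported here. The members and lists were chosen with earlier results of these data known. Intervals are exact Poisson or binomial (Clopper-Pearson) at 95%. Alternatives changed the scaling, cell filter, thinning, clustering input or the libraries used. Calculations were tested on simulated data and used Python 3.11.15, numpy 2.4.6, scipy 1.17.1, pandas 2.3.3, scikit-learn 1.9.0, igraph 0.11.9, leidenalg 0.10.2 and R 4.3.3.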

Additional observations from a re-analysis of the deposited data

How the results depend on the processing

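The libraries could not be tied to the labelled samples, so no difference between the lines was estimated, and intervals cover counting error only. The 1.11-fold range of the summed members became 1.18-fold with size factors, 1.11-fold without cells of over 2 times the median UMI count and 1.08-fold without the cells of cluster 5, the last chosen after seeing the data. Leaving out each library in turn gave 1.05- to 1.11-fold. The count of members with at least 1.5-fold was 4 with size factors, all barcodes, the mean of each cell's share, without cells of over 2 times the median UMI count and without cluster 5, but 1 to 4 when a library was left out. It was 1 (Ckap2) without library 1 or without library 4, and 3 without library 2. The genes changed at that count: with size factors Ube2c took the place of Ect2, and without cells of over 2 times the median UMI count, or with the mean over cells of each cell's share, Mki67 took the place of Nusap1. The 1.16-fold range over states in library 4 became 1.21-fold with cell-cycle genes allowed in the clustering, and the widest range was 1.18-fold, in library 3, without cells of over 2 times the median UMI count. Between 25 and 29 members were among the first 100 correlated genes under the settings run for that count. The departure from the median member was run with the summed members as reference, with all barcodes and without each library, and 0 members reached 1.5-fold in any of these. The cause of these shifts was not tested. No paired analysis was possible because the libraries carry no labelled replicate number.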

Other observations

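The 4 libraries fell into separate ranges for related measures of the spread of the mitotic genes over cells. The variance-to-mean ratio of the summed members was 6.84 in library 1, 6.08 in library 3, 3.41 in library 2 and 3.42 in library 4. The median fold between the highest and lowest decile of cells was 3.34 in library 1, 4.13 in library 3, 2.03 in library 2 and 2.19 in library 4. The lowest decile of library 3 held the 244 cluster 5 cells with few member UMIs. For the S genes the ratio was 1.74, 2.20, 1.81 and 1.97 in libraries 1, 3, 2 and 4, with no such gap. The cell filter kept 85.1% of barcodes in library 1, 81.4% in library 3, 72.5% in library 2 and 73.4% in library 4, a gap between the same libraries. These measures were not run on all barcodes, and the part of the filter was not tested. The libraries are not assigned to the lines, and the differences between libraries were not tested.

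Some genes outside the 3 cell-cycle lists used here ran opposite to the members over cells. Cd81, a membrane tetraspanin, had r of -0.11, -0.11, -0.29 and -0.11 in libraries 1 to 4, and Tagln, an actin-binding protein of contractile cells, -0.10, -0.12, -0.39 and -0.11. Both were most negative in library 3. Against the summed S genes Tagln gave -0.12, -0.14, -0.50 and -0.24 and Cd81 -0.03, -0.06, -0.30 and -0.07. Their library 3 values were thus not particular to the mitotic genes. Other genes were not most negative in library 3, such as the histone gene Hist1h2ap, at -0.23, -0.31, -0.06 and -0.23. The translation factor gene Eef1a1 was at -0.12, -0.07, -0.07 and -0.09. Hist1h2ap was positive against the summed S genes, at 0.10, 0.10, 0.28 and 0.15.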
